A study of Mus musculus with 4 samples.

Results

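Bri3bp, Nufip2, Vkorc1l1, Uba2, Prdx1 and Alkbh1 are 6 mouse protein-coding genes, between 14.4 and 44.6 kb long, over which the peaks of the RNA helicase DHX9 lay closely packed. They are 6 of the 21900 protein-coding genes of the RefSeq annotation used, and 6 of the 2330 that are at least 10 kb long and held at least 5 peaks. They were chosen by the peak calls themselves, for a high number of peaks per kb of gene body, either with the peaks as listed or with peaks no more than 50 bases apart joined into 1. The peak counts and densities below therefore describe the choice and were not tested. Other measures of the same peaks (coverage, spacing, width, position) come from the same list and were also given without a test.

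The peaks came from FLASH, a form of CLIP-seq: protein and RNA were crosslinked by ultraviolet light in living cells, the protein was pulled down, and the attached RNA fragments were sequenced. The cells, WT26, are embryonic stem (ES) cells from a male mouse of mixed C57BL/6x129sV background that grow without feeder cells, and they were kept with leukemia inhibitory factor; this is a single line, and no sample lacks DHX9. There were 2 pulldowns with a rabbit antibody against DHX9 (replicates A and B) and 2 with rabbit IgG as the control (replicates A and B). The authors deposited 1 peak list for all 4 samples, with 59563 peaks and an empty score field, so no height, read count, depth or value per replicate was available, and the spread between replicates is unknown. Of the ES cell marker genes listed, 7 of 8 held a peak (Pou5f1 held 12, Nanog 13 and Sox2 6, while Dppa5a held none). None of 4 fibroblast and 6 differentiation markers did. Of all protein-coding genes 22.8% held a peak, so a marker without one is like most genes. The identity of the cells was not tested by these counts.

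DHX9 is a helicase of the DEAH family that unwinds RNA duplexes, RNA-DNA hybrids and other structures, and much of it is nuclear, where it meets RNA as it is transcribed. Unspliced transcripts are mostly intron, and introns of mouse genes hold many repeats, some of which form duplexes when a pair of inverted copies lies in 1 transcript. A CLIP peak marks a stretch where crosslinked fragments were called as enriched, so its presence depends on how much of an RNA is made as well as on binding. The list holds no measure of RNA amount, and in bulk cells a gene transcribed in few cells and one transcribed weakly in all cannot be told apart.

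Together the 6 genes held 341 peaks in 154 kb, which is 0.573% of the list, and all 341 lay on the strand from which the gene is transcribed. Every one of the 6 held a peak, as the choice required; of all protein-coding genes 22.8% did. Across the 1886 genes of at least 10 kb and 5 peaks whose strand is given in the RefSeq promoter table, 40141 of 40722 peaks (98.6%) lay on the gene strand, and 1853 of these genes had most of their peaks on it. Of the 341 peaks, 336 lay in no other gene body. Peaks covered 82.8 kb, or 53.7% of the summed gene length.

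**Figure D1:**
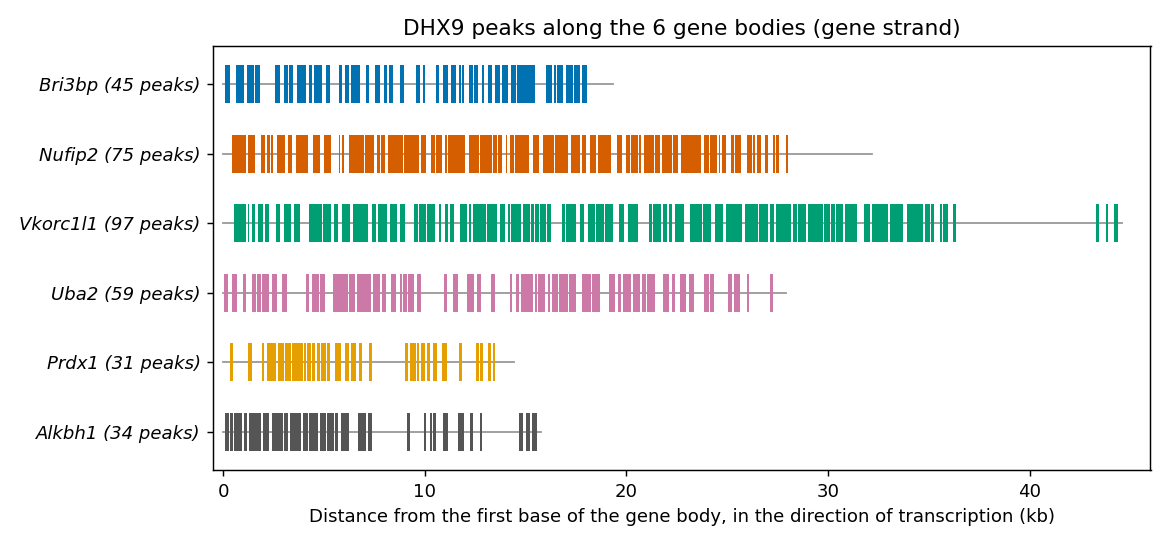
Each line is a gene body drawn to scale from its first base in the direction of transcription (x axis, kb), and each coloured block is a DHX9 peak on the gene strand. Peaks are spread along each body, covering 42.0% of Prdx1 to 60.3% of Nufip2, with a peak-free stretch of 6972 bases near the end of Vkorc1l1, 4204 bases without a peak at the end of Nufip2, and 23 of the 34 peaks of Alkbh1 in the first 50% of the gene.

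Bri3bp encodes a membrane protein named for its binding to BRI3. It lies on the plus strand of chromosome 5 (mm10, 125441568 to 125460885) and held 45 peaks in 19.3 kb, or 2.33 peaks per kb. They covered 9888 bases (51.2% of the gene). The spread along the gene was even: cut into 5 equal parts from start to end, it held 8, 10, 8, 12 and 7 peaks, and 18 of its 19 full 1-kb windows held a peak midpoint. The median gap between neighbouring peaks was 147 bases, the widest of the 6 genes, and the longest was 731 bases. The first peak began 57 bases into the gene and the last ended 1276 bases before its end. With peaks within 50 bases joined, 35 remained.

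Nufip2 encodes an RNA-binding protein that partners the fragile X protein FMRP. It lies on the plus strand of chromosome 11 (77685764 to 77717966) and held 75 peaks in 32.2 kb, also 2.33 per kb. Its peaks covered 19430 bases (60.3%), the highest share of the 6 genes. Neighbouring peaks were the closest of the 6, with a median gap of 75 bases and a longest gap of 416 bases, and 26 of 74 gaps were 50 bases or less. The 5 equal parts of the gene held 14, 17, 17, 20 and 7 peaks. The drop in the last part came from its end: no peak lay in the last 4204 bases (13.1% of the gene). Without that stretch the density was 2.68 per kb and the coverage 69.4%. The widest peak of the 6 genes, 630 bases (77702220 to 77702849), lies in Nufip2.

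Vkorc1l1 encodes a paralogue of the vitamin K epoxide reductase VKORC1, and like it reduces vitamin K epoxide. It lies on the plus strand of chromosome 5 (129942109 to 129986692) and was the longest of the 6 genes, with 97 peaks in 44.6 kb (2.18 per kb), all of them in no other gene. Coverage was 25778 bases (57.8%). In the first 36.3 kb the run of 94 peaks was broken by no gap longer than 556 bases. It then stopped: bases 129978449 to 129985420 were free of peaks, a run of 6972 bases from 81.5% to 97.1% of the gene, and 3 peaks followed in the last 1.27 kb. The 5 parts held 21, 24, 21, 26 and 5 peaks. With the empty stretch left out of the length, the gene had 2.58 peaks per kb and 68.5% coverage. Exons and untranslated regions were not analysed here, so what the peak-free ends of Vkorc1l1 and Nufip2 hold was not tested.

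Uba2 encodes the catalytic subunit of the SUMO-activating enzyme, the first enzyme of the pathway that attaches SUMO proteins to other proteins. It lies on the minus strand of chromosome 7 (34140697 to 34168590) and held 59 peaks in 27.9 kb (2.12 per kb), over 14210 bases (50.9%). Its 5 parts held 12, 12, 12, 14 and 9 peaks, and 26 of 27 windows of 1 kb held a midpoint. The median gap was 136.5 bases and the longest 1155 bases. The peaks began closer to the start of the gene body than in the other 5 genes, 31 bases in.

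Prdx1 encodes a peroxiredoxin that reduces peroxides and is itself reduced by thioredoxin. It lies on the plus strand of chromosome 4 (116685599 to 116700000) and was the shortest of the 6 genes, with 31 peaks in 14.4 kb (2.15 per kb). Its peaks were also the narrowest, with a median of 171 bases, and they covered the smallest share, 6049 bases (42.0%). The 5 parts held 5, 10, 4, 7 and 5 peaks, and the longest gap, 1632 bases, ran from 51.2% to 62.5% of the gene. No peaks of Prdx1 overlapped each other, and 24 remained when those within 50 bases were joined.

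Alkbh1 encodes a dioxygenase of the AlkB family that removes methyl groups from nucleic acids, tRNA among them. It lies on the minus strand of chromosome 12 (87428077 to 87443839) and held 34 peaks in 15.8 kb (2.16 per kb), over 7395 bases (46.9%). Its peaks were denser in the first part of the gene: the 5 parts held 12, 9, 3, 6 and 4 peaks, and the first 50% held 23 against 11 in the second. The first 20% thus held 35.3% of the peaks, and in the other 5 genes it held 16.1 to 21.6%. Gaps of 1823 and 1757 bases lay in the thinner part. The first 20% includes 4 peaks shared with Nrp, an overlapping gene described below. With peaks within 50 bases joined, its share was 26.9% in Alkbh1 and 14.3 to 26.2% in the other 5 genes. Of the 2330 genes, 1880 others had a known strand, and their median share was 20.6% (quartiles 3.67 and 40%). The 35.3% of Alkbh1 lay between these quartiles. Whether Alkbh1 differs from the other 5 genes in this share beyond the counting error of 34 peaks was not tested.

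Peaks entered the window around the annotated start in 2 of the 6 genes, and reached the start itself in Uba2. The share of all genes with a peak in this window was not counted, so 2 of 6 cannot be called many or few. In the RefSeq promoter windows (GRCm38.p6, the assembly that mm10 represents; 250 bases before to 50 after the annotated start), a gene-strand peak overlapped the window of Uba2 over 80 bases and that of Nufip2 over 17 bases. These 2 windows are shown 5′ to 3′ on the gene strand because a peak enters them, with the bases inside the peak in capitals.
Uba2, chr7:34168480-34168779, minus strand: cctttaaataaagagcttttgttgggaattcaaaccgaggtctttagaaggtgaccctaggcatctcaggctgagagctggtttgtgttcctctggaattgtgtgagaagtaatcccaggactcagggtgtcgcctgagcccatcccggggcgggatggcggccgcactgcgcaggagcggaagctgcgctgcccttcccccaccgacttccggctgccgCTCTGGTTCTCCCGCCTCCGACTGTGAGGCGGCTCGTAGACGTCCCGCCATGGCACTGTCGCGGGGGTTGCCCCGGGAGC
Nufip2, chr11:77685889-77686188, plus strand: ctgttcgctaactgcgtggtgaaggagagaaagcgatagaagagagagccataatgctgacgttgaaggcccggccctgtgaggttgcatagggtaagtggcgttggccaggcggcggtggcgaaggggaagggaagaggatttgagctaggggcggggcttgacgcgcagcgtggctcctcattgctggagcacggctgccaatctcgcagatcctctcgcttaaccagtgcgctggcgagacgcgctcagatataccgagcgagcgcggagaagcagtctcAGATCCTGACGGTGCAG
The Uba2 peak (34168355 to 34168559) reached 30 bases before the start used in the window, which lies inside the annotated gene body. In Nufip2 the first peak (77686172 to 77686551) began 33 bases after that start. From the same annotated start, the first peak began after 57 bases in Bri3bp, 91 in Alkbh1, 331 in Prdx1 and 531 in Vkorc1l1, beyond their windows. The GC content of the 6 windows ranged from 53.0% in Alkbh1 to 81.7% in Vkorc1l1.

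Alkbh1 also hosts a microRNA, Mir3068, on the same strand, and a peak covered all of it. MicroRNAs are cut from hairpins in a primary transcript, so the hairpin is a duplex within the Alkbh1 RNA. The peak (87437630 to 87437999) spanned the 79 bases of the hairpin (87437679 to 87437757). The hairpin and the 2 mature arms are shown because they give the RNA under that peak, with the seed of each arm (bases 2 to 8) in capitals; the arms have different seeds.
Mir3068 hairpin, chr12:87437679-87437757, minus strand: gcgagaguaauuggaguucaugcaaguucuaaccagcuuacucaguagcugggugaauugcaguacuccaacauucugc
mmu-miR-3068-5p, chr12:87437724-87437747: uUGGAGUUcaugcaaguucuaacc
mmu-miR-3068-3p, chr12:87437685-87437706: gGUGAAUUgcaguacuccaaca
This was the only microRNA of the RefSeq table inside any of the 6 genes. The peak's midpoint lay outside the hairpin. The peak belonged to a run of 21 peaks in 6.12 kb, in which no gap exceeded 200 bases.

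The 6 genes were alike in the spacing of their peaks. The median distance between neighbouring peak midpoints was 335 bases in Prdx1, 340 in Alkbh1, 354 in Vkorc1l1, 357.5 in Nufip2, 373.5 in Bri3bp and 404 in Uba2. In the other 2324 genes of at least 10 kb and 5 peaks, the median of the same measure was 546.75 bases (quartiles 431.875 and 851.25). The longest gap showed a wider separation: in 5 of the 6 genes it was between 416 and 1823 bases, and in the other 2324 genes its median was 7461 bases; Vkorc1l1, with 6972 bases, was close to that median. In the other genes among the 10 densest as listed, the median distance ran from 315.5 bases in Srsf3 to 395.5 in Ywhag. Their longest gaps ran from 305 bases in Srsf3 to 3811 in Ywhae, so this spacing was not particular to the 6 genes. A higher density in a gene of given length leaves less room for gaps, so the spacing is not independent of how the genes were chosen.

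**Figure D2:**
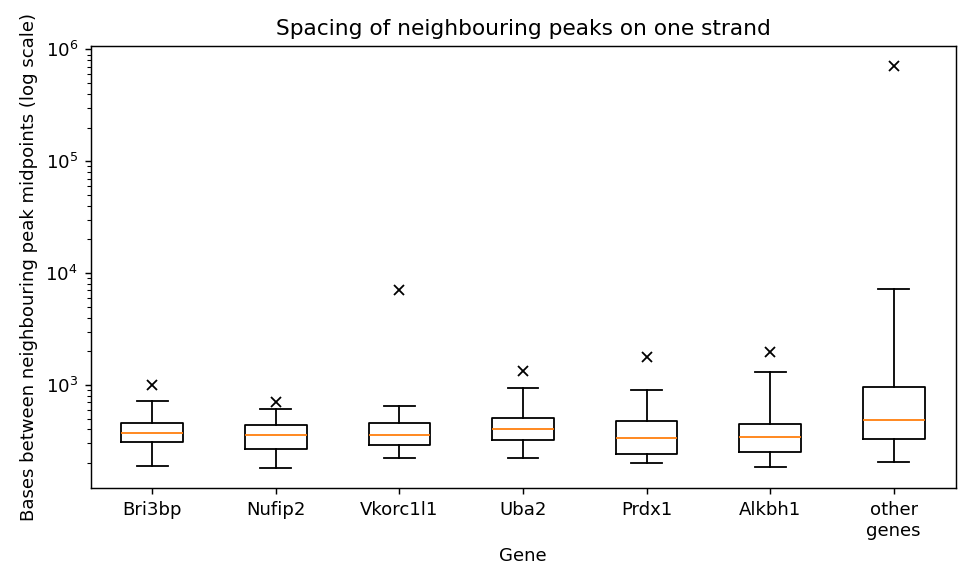
The y axis (log scale) gives the distance in bases between neighbouring peak midpoints on 1 strand for the 6 genes and for the other 2324 genes pooled; boxes are quartiles with the median, whiskers the 5th and 95th percentiles and crosses the largest distance. Medians of the 6 genes lie between 335 and 404 bases, against 490 bases in the other genes, and a cross at 7114 bases marks the empty stretch of Vkorc1l1.

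Runs of peaks joined into long blocks when small gaps were ignored. With gaps of up to 50 bases joined, the longest block was 1534 bases in Nufip2 (5 peaks, 77693912 to 77695445), 1191 in Bri3bp, 1169 in Vkorc1l1, 1130 in Prdx1, 880 in Uba2 and 601 in Alkbh1. With gaps of up to 200 bases joined, Vkorc1l1 held a block of 8315 bases made of 25 peaks (129965252 to 129973566). Alkbh1 followed with 6119 bases and Nufip2 with 5403 bases, while the longest blocks of Prdx1, Bri3bp and Uba2 were 3360, 3288 and 3006 bases.

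Peaks were wider than the median of the list in 5 of the 6 genes. The median width was 247 bases in Vkorc1l1, 245 in Nufip2, 224 in Bri3bp, 220 in Uba2, 201.5 in Alkbh1 and 171 in Prdx1, and it was 196 bases over the whole list (quartiles 146 and 268). In the other genes among the 10 densest as listed, median widths ran from 220 bases in Ywhae to 256.5 in Tdh. Wide peaks were thus not particular to the 6 genes. Of the 341 peaks, 215 (63.0%) were at least 196 bases wide, a share that was 70.1% in Vkorc1l1 and 41.9% in Prdx1. The widths of single peaks in the 6 genes ran from 45 to 630 bases, both in Nufip2.

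Among genes of like length, many peaks were rare. Of 6573 other protein-coding genes between 14.4 and 44.6 kb long, 4575 (69.6%) held no peak and 1088 held at least 5. These 1088 had a median of 13 peaks, 0.516 peaks per kb, 10.5% coverage and a longest gap of 4520.5 bases. None of them held more peaks than the 97 of Vkorc1l1, and the highest count was 84. The range ends at the length of Vkorc1l1 itself, so its count was compared only with genes no longer than it. Beyond the range, Cbx7 held 113 peaks in 55.3 kb. The highest density within the range was 2.47 peaks per kb, above that of each of the 6. The 6 genes were chosen for this density, and the comparison only places them. At least 2 peaks per kb were held by 28 of the 2330 genes of at least 10 kb and 5 peaks (1.20%), the 6 included, and at least 50% of the body was covered in 35 (1.50%), among them Nufip2, Vkorc1l1, Bri3bp and Uba2. A peak midpoint lay in more than 90% of 1-kb windows in 38 (1.63%), which included Uba2, Bri3bp, Alkbh1 and Prdx1.

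**Figure D3:**
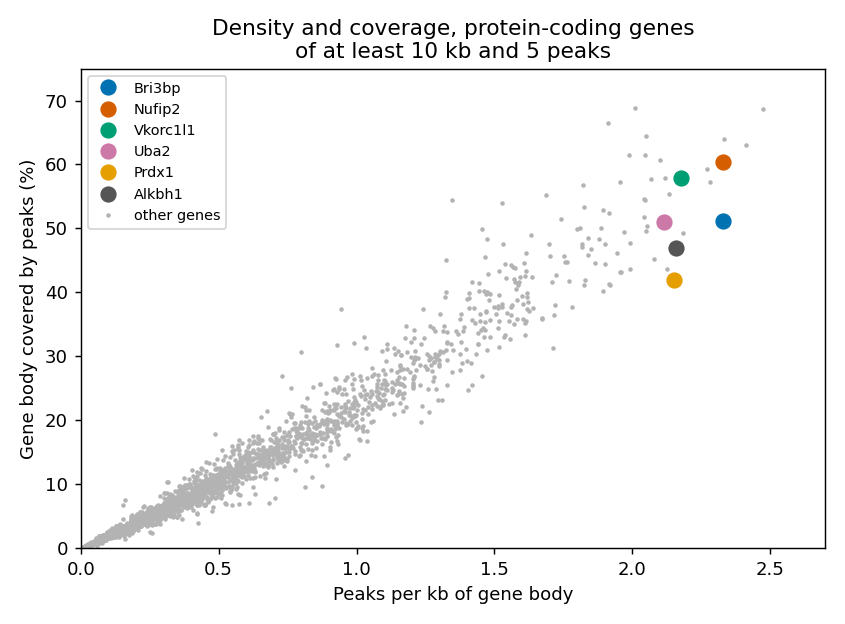
Each point is a protein-coding gene of at least 10 kb and 5 peaks, with peaks per kb of gene body on the x axis and the percentage of the gene body covered by peaks on the y axis; the 6 genes are large coloured points and the other 2324 genes small grey ones. At similar densities of 2.12 to 2.33 per kb the 6 genes differ in coverage, from 42.0% in Prdx1 to 60.3% in Nufip2.

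The order of the 6 genes depended on how peaks were counted. As listed, Bri3bp and Nufip2 ranked 5 and 6 of 2330, Vkorc1l1 10, Alkbh1 11, Prdx1 12 and Uba2 16. Other genes had nearly the same values: Sumo2 at 2.13, Snrnp70 at 2.13 and Cbx1 at 2.12 peaks per kb stood just above Uba2 at 2.12. Canx at 2.11 stood just below it. The densest gene, Ywhag at 2.47, was also not among the 6, so density alone did not set the choice. With peaks within 50 bases joined, Bri3bp ranked 1 at 1.81 per kb, ahead of Snrnp70 at 1.76 and Eif4h at 1.74. Uba2 then ranked 5 (1.68), Prdx1 8 (1.67) and Alkbh1 10 (1.65, with Zfp42 next at 1.59), while Nufip2 and Vkorc1l1, whose peaks lay closest, had ranks 16 (1.52) and 29 (1.46). With gaps of up to 100 bases joined, Bri3bp still ranked 1 (1.60), and Vkorc1l1 was at rank 130 (0.920). With 200 bases, the ranks of the 6 ran from 55 for Uba2 to 773 for Vkorc1l1. Joining lowers the count most where gaps are shortest. By coverage the order was Nufip2 (rank 10), Vkorc1l1 (14), Bri3bp (31), Uba2 (32), Alkbh1 (51) and Prdx1 (83).

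**Figure D4:**
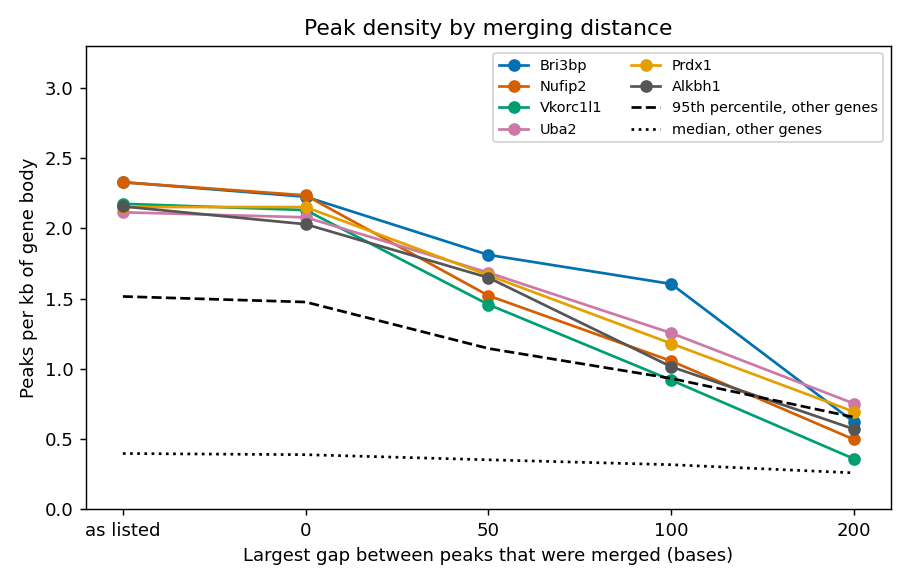
Peaks per kb of gene body (y axis) are plotted for the 6 genes with peaks as listed and with peaks joined across gaps of up to 0, 50, 100 and 200 bases (x axis); the dashed and dotted lines are the 95th percentile and the median of the other 2324 genes. All 6 genes lie above the dashed line as listed and at 50 bases, and Bri3bp is highest from 50 to 100 bases, while Vkorc1l1 has the lowest value at 50, 100 and 200 bases.

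Fewer peaks lay just outside the 6 genes than inside them. The share of all genes with a peak in such flanks was not counted, so the counts below cannot be called many or few. Within 5 kb upstream of the start, none of the 6 genes had a peak on either strand. Within 5 kb downstream, Uba2 and Prdx1 had none. Bri3bp had 1 on its own strand, which ended 151 bases past the gene, and Nufip2 had 1 on its own strand inside the body of Cryba1, a crystallin gene annotated on the opposite strand. Vkorc1l1 had 1 on the opposite strand, in a gene body. Alkbh1 had the most, with 5 peaks on its own strand in no annotated gene, the farthest reaching 3101 bases past its end; the next protein-coding gene on that side, Sptlc2, lay 39.7 kb away.

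The protein-coding genes next to the 6 all held fewer peaks per kb than the 6, which were chosen for density. Most of these neighbours still held at least 1 peak. Of all protein-coding genes 22.8% did, and 14.8% held at least 3. The neighbours were thus not poor in peaks against genes in general. Around Bri3bp, the helicase gene Dhx37 held 2 peaks and Aacs none. Around Vkorc1l1, Nupr1l held 2 and the lysosomal enzyme gene Gusb 4, and around Uba2, Pdcd2l held 4 and Wtip 3. Slirp, whose annotated start side lies 0.056 kb from that of Alkbh1 on the opposite strand, held none, as did Mmachc beside Prdx1. Sptlc2 beside Alkbh1 held 9, and Cryba1 beside Nufip2 held 1. The kinase gene Taok1, 60.4 kb upstream of Nufip2, held 31 (0.322 per kb), and the reductase gene Akr1a1, 33.9 kb upstream of Prdx1, held 24 in 15.2 kb (1.58 per kb).

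Overlapping genes touched few of the peaks. AV051173, a long noncoding RNA gene on the minus strand, runs across the start of Prdx1, and the 1 peak in both lay on the plus strand, that of Prdx1. Nrp, annotated as a protein-coding gene of 1170 bases over the start of Alkbh1, shared 4 of its peaks, all on the minus strand; its own strand was not in the promoter table, so to which gene these 4 belong was not tested. Without shared peaks Alkbh1 had 1.90 peaks per kb and rank 34. Bri3bp, Nufip2, Vkorc1l1 and Uba2 overlapped no other gene.

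The pathways of the 6 genes were not covered alike, and most of their relatives held fewer peaks per kb than the chosen genes. The lists below were drawn up from gene function, with length and RNA amount unmatched. In the SUMO pathway 13 of 15 genes held a peak, against 22.8% of all protein-coding genes. The 13 include Uba2, which was chosen for its peaks. Sumo2, one of the SUMO proteins, held 28 peaks at 2.13 per kb, close to the 2.12 of Uba2. Senp3, a nucleolar SUMO protease gene of 8.97 kb, held 18 (2.01 per kb), and Sae1, the partner subunit of Uba2, held 80 over 67.7 kb (1.18 per kb). The SUMO ligase gene Pias2 held 84 (0.928 per kb), while Pias3 and Senp7 held none. Among the 10 ubiquitin-like E1 genes, Uba2 and Sae1 held most peaks; Uba3 held 9, Uba1, the main ubiquitin E1, 3, and Uba6, Uba7, Atg7 and Mocs3 none.

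Around Nufip2, 8 of 10 genes for FMRP and its partners held a peak, against 22.8% of all protein-coding genes. The 8 include Nufip2, which was chosen for its peaks. The stress granule gene G3bp1 was the most like it, with 64 peaks at 2.05 per kb and 64.4% coverage. Fxr2 and Fxr1, relatives of FMRP, held 30 (1.48 per kb) and 40 (0.801 per kb), and Caprin1 held 42 (1.21 per kb). G3bp2 held 56, and 29 of these were outside other gene bodies. Nufip1, named for the same binding to FMRP, held 5 peaks, Fmr1 itself 4, and Cyfip1 and Cyfip2 none.

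Prdx1, Alkbh1, Vkorc1l1 and Bri3bp each held more peaks than any other gene of their family list. They were chosen for their peak density, so this place was largely set by the choice and was not tested. Where a list holds a chosen gene, the counts below include it. Of all protein-coding genes, 22.8% held a peak. Of the 6 peroxiredoxin genes 4 held a peak: the mitochondrial Prdx3 held 10 (0.955 per kb), Prdx6 2, Prdx4 1, and Prdx2 and Prdx5 none. In the thioredoxin system that reduces peroxiredoxins, 3 of 7 genes held a peak, with 8 in Txnrd1 and 1 each in Txn1 and Txnip. Of the 9 AlkB genes 6 held a peak; after Alkbh1 with 34, Fto, an RNA demethylase gene of 355 kb, held 12 (0.034 per kb), Alkbh3 held 5 and Alkbh5 none. In the vitamin K cycle, Ggcx, the carboxylase that uses reduced vitamin K, held 2, and Vkorc1, Nqo1 and Aifm2 held none. Bri3 held 3 peaks, none of them outside other genes. Gene length differs widely within these lists (Vkorc1 is 2.60 kb and Vkorc1l1 44.6 kb).

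**Figure D5:**
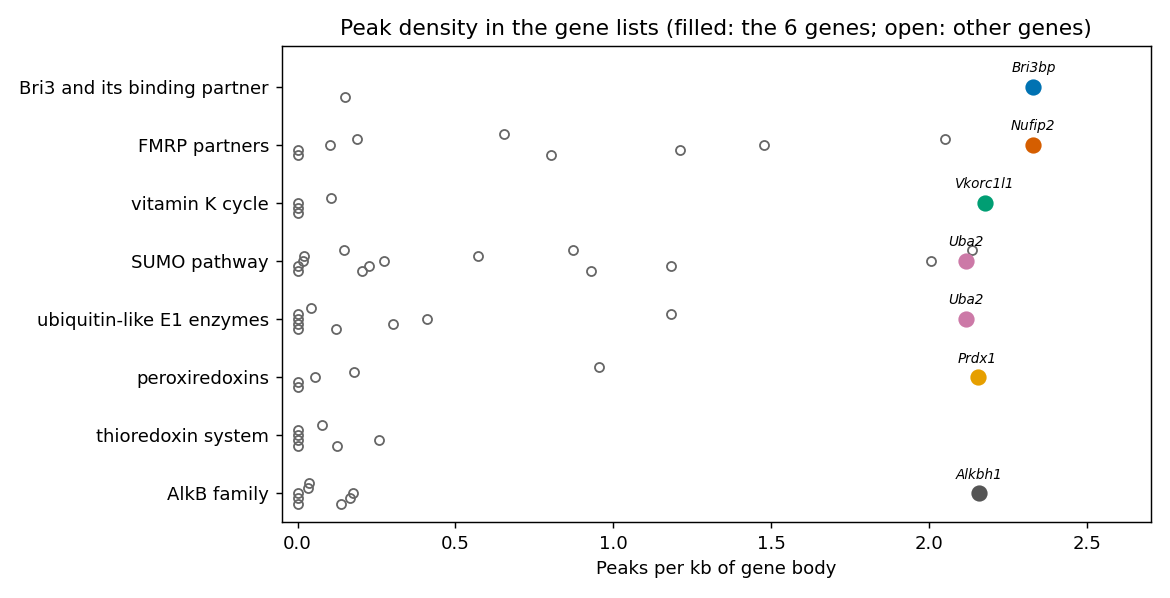
Peaks per kb of gene body (x axis) are shown for each gene of 8 lists (rows); filled coloured points are the 6 genes and open circles the other genes, shifted vertically for legibility. In 5 of the lists the filled point lies apart from the other genes on the right. Among the FMRP partners G3bp1, and in the SUMO pathway Sumo2 and Senp3, lie close to it. The 6 genes were chosen for this density, so their place on the right follows largely from the choice.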

How the data were processed

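RNA bound to DHX9 (2 pulldowns) or recovered with IgG (2 pulldowns) was sequenced from WT26 ES cells. The deposited file is 1 list of peaks, which per its source column the authors called with PEAKachu (version, settings, use of the control: not given in the sources used here). The tool Bowtie2 2.2.6 and the builds hg19 and mm10 are in the submitters' processing notes, and mm10 was taken for this mouse list. The list gives the start, end and strand of each peak but no score, so the sequencing depth and its precision are unknown.

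Genes came from a RefSeq table of GRCm38.p6, and strands and sequences from the RefSeq promoter and microRNA tables, which gave a strand for 17492 of 21900 protein-coding genes and for all 6 genes described. A peak was assigned to each gene body holding its midpoint. Coverage is the union of peaks on the strand with most peaks, and gaps and distances were taken along that strand. The genes and gene lists were chosen with earlier results of these data known; the genes named are those 6, their neighbours in place and in rank, overlapping genes, the highest ranks and the list members. The values of 2 list genes are not reported here. Python 3.11.15, pandas 2.3.3 and numpy 2.4.6 were used. Counting, joining and coverage were tested on simulated data, in which all were recovered for 200 of 200 genes. No test was run on the peaks, since the choice used them.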

Additional observations from a re-analysis of the deposited data

How the results depend on the processing

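No paired analysis was possible because the deposited list holds no value per sample. Of 148 recomputed values, 77 kept within 1.5 times (shares: within a 95% Wilson interval that covers counting error only) and 71 moved. Assigning peaks by any overlap changed no density or rank. Joining peaks lowers the count by construction. Joined within 50 bases, the density of Nufip2 was 1.52 per kb and its median gap 153 bases (134 in Vkorc1l1). Joined within 100 bases, densities were 1.06 in Nufip2, 0.920 in Vkorc1l1, 1.25 in Uba2, 1.18 in Prdx1 and 1.02 in Alkbh1. Joined within 200 bases, they were 0.621 in Bri3bp, 0.497 in Nufip2, 0.359 in Vkorc1l1, 0.753 in Uba2, 0.694 in Prdx1 and 0.571 in Alkbh1. Counting wide peaks alone (196 bases or more), they were 1.40 in Bri3bp, 1.49 in Nufip2, 0.903 in Prdx1 and 1.21 in Alkbh1, and coverage was 37.3% in Bri3bp, 49.0% in Nufip2, 48.1% in Vkorc1l1, 41.3% in Uba2, 24.3% in Prdx1 and 33.2% in Alkbh1.

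Ranks moved more. Within 0 bases, Alkbh1 ranked 19. Within 50 bases the ranks that moved were 1 for Bri3bp, 16 for Nufip2, 29 for Vkorc1l1 and 5 for Uba2. Within 100 bases they were 1 for Bri3bp, 57 for Nufip2, 130 for Vkorc1l1, 8 for Uba2, 19 for Prdx1 and 77 for Alkbh1. Within 200 bases they were 165 for Bri3bp, 387 for Nufip2, 773 for Vkorc1l1, 55 for Uba2, 82 for Prdx1 and 253 for Alkbh1. With the wider peaks only, Bri3bp ranked 24, Nufip2 17, Prdx1 147 and Alkbh1 51. With peaks in no other gene, Bri3bp ranked 2, Nufip2 3, Vkorc1l1 6, Uba2 10 and Alkbh1 34. Among genes of at least 5 kb and 5 peaks, which adds genes to the ranking, the ranks were 11 for Bri3bp, 12 for Nufip2, 22 for Vkorc1l1, 29 for Uba2, 24 for Prdx1 and 23 for Alkbh1.

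Ends of 10% of the gene hold fewer peaks than ends of 20% by construction. The first 10% held 8.89% of the peaks in Bri3bp, 9.33% in Nufip2, 9.28% in Vkorc1l1, 11.9% in Uba2, 6.45% in Prdx1 and 17.6% in Alkbh1; the last 10% held 4.44% in Bri3bp, 0% in Nufip2, 6.78% in Uba2 and 6.45% in Prdx1. With at least 3 peaks per gene, 3 AlkB, 2 peroxiredoxin, 1 thioredoxin and 1 vitamin K gene remained. Of all protein-coding genes, 14.8% held at least 3 peaks. Without peaks shared with other genes, 1 of the pair Bri3 and Bri3bp remained.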
